A study of Mus musculus with 38 samples.

Results

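Sorted CD45+ cells of wild type (WT) mouse dorsal skin were compared between postnatal day 56 (P56) and postnatal day 30 (P30). CD45 is the membrane phosphatase carried by leukocytes, and its antibody is used to sort them from digested skin. WT hair follicles were in anagen, the growth phase, at P30 and in telogen, the resting phase, at P56. The genes described are the protein-coding genes of the CD45+ table with 1 FPKM or more in at least 2 of the 4 WT libraries, leaving out the X and Y chromosomes. FPKM gives a gene's level relative to its transcript length and to the library's mapped total. The rule took 11657 of the table's 31002 genes. The series holds 38 libraries in 19 groups of 2. Each WT age had 2 libraries, and the same table holds 2 libraries of P56 mutant skin, in which, per the study's description, oncogenic Nras is expressed from the tyrosinase (Tyr) promoter of the melanocyte lineage. GEO's labels name the WT and mutant genotypes without an allele or strain, and they do not say whether the 2 libraries of a group came from separate animals, while the methods speak of biological replicates in a number other than 2. If they did not, the p-values rest on a spread between libraries that may be technical only. How the sort was gated beyond CD45 is not given in the labels or methods used here.

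Mouse skin holds several leukocyte populations. Dendritic epidermal T cells, which carry a gamma delta receptor, and Langerhans cells, which are antigen-presenting cells marked by langerin (Cd207), sit in the epidermis. Macrophages, mast cells, dendritic cells, regulatory T cells and innate-like lymphocytes sit mostly in the dermis and around hair follicles. Macrophages, regulatory T cells and mast cells are each known to act on the hair cycle, and during anagen the follicle also contains dividing matrix cells, pigment cells and the keratinising layers of the growing shaft.

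FPKM summed to between 700770 and 820072 per library over the 6 CD45+ libraries, with between 12236 and 12620 genes at 1 FPKM or more. Read totals are not in the table, so the depth behind a value is unknown and no interval from counts can be given. Log2 values of the members correlated at 0.995 and 0.996 within the WT ages and at 0.944 to 0.947 between them. Ptprc, which encodes CD45 itself (ENSMUSG00000026395.16, GRCm38 chr1:138062861-138175708), stood at 223 and 214 FPKM at P30 and 365 and 360.4 FPKM at P56. It was higher in both P56 libraries, but by less than 2-fold (log2 change 0.73 ± 0.05 SE, adjusted p = 6.6e-05). The mutant libraries held 239.7 and 255 FPKM of Ptprc. The libraries also differed in sex-linked RNA. Y-linked Ddx3y was at 5.67 and 5.21 FPKM at P30 and 0 and 0 FPKM at P56 and Eif2s3y at 10.2 and 9.47 FPKM at P30 and 0 and 0 FPKM at P56, while Xist was at 14.5 and 14 FPKM at P30 and 23.2 and 24.6 FPKM at P56. Uty was at 1.14 and 1.15 FPKM at P30 and 0 and 0 FPKM at P56. These 3 of the 5 Y-linked genes that reached the minimum were thus listed at 0 at P56. The other two were not: Erdr1, of the region that X and Y share, was at 378 and 400.2 FPKM at P30 and 164 and 149 FPKM at P56 and Gm21860 at 4.17 and 9.49 FPKM at P30 and 4.91 and 3.05 FPKM at P56. Age and the sex of the mice cannot be told apart in any result given here.

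The test was limma on log2(FPKM + 1). Calls needed a change of at least 2-fold on that scale and an adjusted p (Benjamini-Hochberg, over 13557 genes tested) below 0.05. Of the members, 351 rose at P56 (3.01%) and 871 fell (7.47%), beside 3.73% and 6.89% of all genes tested. The median log2 change was -0.03 over the members and -0.01 over all genes tested. Values of the 2 ages did not overlap for 9560 members (82%), beside 81% of all genes tested, and 7017 members (60.2%) passed the adjusted p without the 2-fold limit, beside 58.7% of all genes tested. In both libraries of P30 and neither of P56, 573 members reached 1 FPKM, and 269 of these were called lower. The reverse held for 206 members, of which 56 were called higher. Of the called members, 91 were listed at 0 in both P56 libraries and 9 in both P30 libraries, and for these no fold is given, since the table holds no counts from which a bound could be set. On the log2(FPKM + 1) scale, 110 of the members that fell and 19 of those that rose changed by 4-fold or more. These counts include genes listed at 0 at 1 age, whose change on that scale depends on the added 1.

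**Figure D1:**
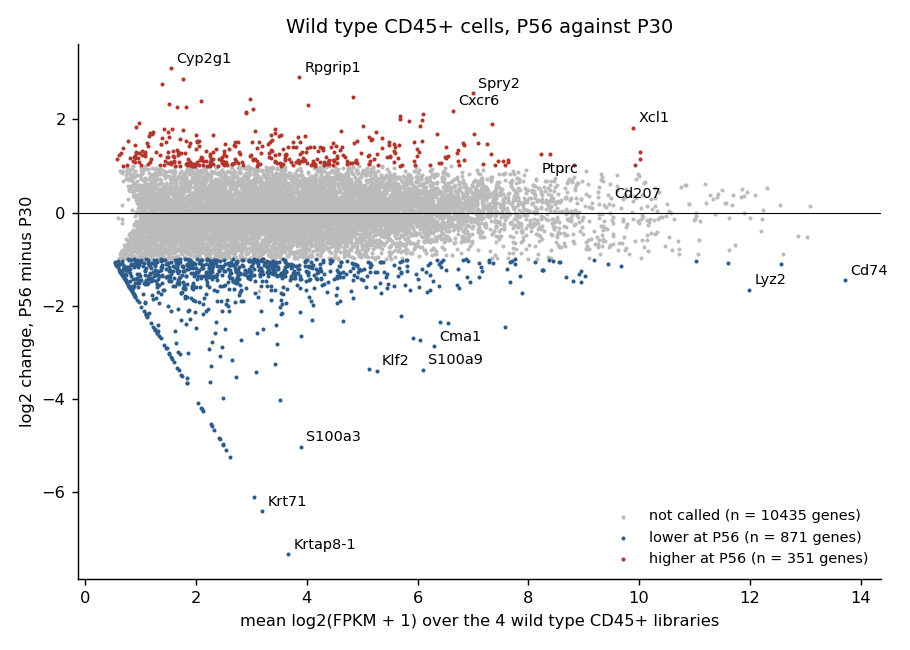
Each point is 1 of the 11657 members, with its mean log2(FPKM + 1) over the 4 WT CD45+ libraries on the horizontal axis and its log2 change from P30 to P56 on the vertical axis. The 871 genes called lower reach further from 0 than the 351 called higher, with Krtap8-1 and Krt71 lowest and Cyp2g1 and Rpgrip1 highest, and the straight lower edge at left is formed by genes listed at 0 at P56.

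The largest rises included receptors and secreted factors of lymphocytes. Cxcr6, a chemokine receptor of tissue-resident lymphocytes (ENSMUSG00000048521.7, GRCm38 chr9:123806475-123811760), went from 46.5 and 45.3 to 218 and 206 FPKM (log2 change 2.18 ± 0.07 SE, adjusted p = 3.8e-06). Csf2, the growth factor GM-CSF, went from 2.72 and 2.09 to 16.4 and 18.5 FPKM (log2 change 2.44 ± 0.15 SE, adjusted p = 3.4e-05). Il22, a cytokine that acts on epithelium, went from 1.04 and 0.67 to 9.39 and 8.11 FPKM (log2 change 2.398 ± 0.14 SE, adjusted p = 2.7e-05). In each of the 3 genes both P56 libraries were several times above both P30 libraries. Spry2, a feedback inhibitor of receptor tyrosine kinase signalling, was the most abundant of the 12 largest rises at 55.4 and 48.2 FPKM at P30 and 289 and 334 FPKM at P56 (log2 change 2.56 ± 0.09 SE, adjusted p = 5.0e-06). Mutant P56 libraries held 342 and 389 FPKM of Cxcr6, 119 and 112 FPKM of Spry2 and 1.61 and 1.81 FPKM of Il22.

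Other large rises were in genes outside the immune lists. Rpgrip1, which encodes a protein of photoreceptor cilia, stood at 4.15 and 4.48 FPKM at P30 and 38.6 and 38.9 FPKM at P56 (log2 change 2.90 ± 0.08 SE, adjusted p = 1.8e-06). Arglu1, an arginine- and glutamate-rich nuclear protein, stood at 11.8 and 10.5 FPKM at P30 and 66.2 and 67.4 FPKM at P56 (log2 change 2.48 ± 0.07 SE, adjusted p = 2.0e-06). Cdkn1b, the cyclin-dependent kinase inhibitor p27, stood at 6.7 and 5.8 FPKM at P30 and 32.9 and 37.2 FPKM at P56 (log2 change 2.31 ± 0.13 SE, adjusted p = 2.7e-05). These 3 genes were high in both P56 genotypes: mutant values were 40.9 and 37 FPKM of Rpgrip1, 107 and 104 FPKM of Arglu1 and 37.2 and 28.9 FPKM of Cdkn1b. Akr1c18, which inactivates progesterone, went from 0.2 and 0.33 to 7.57 and 8.89 FPKM (log2 change 2.87 ± 0.13 SE, adjusted p = 1.1e-05). C1qtnf3, a secreted protein of the C1q and tumour necrosis factor family, went from 2.82 and 2.72 to 16.9 and 16.2 FPKM (log2 change 2.22 ± 0.09 SE, adjusted p = 6.4e-06) and stood at 3.91 and 4.07 FPKM in the mutant. Cyp2g1, a cytochrome P450, was listed at 0 in both P30 libraries and at 8.15 and 6.98 FPKM at P56. Sapcd1 (0 and 0.62 FPKM at P30 and 5.32 and 5.56 FPKM at P56) and Ugt1a1, a glucuronosyl transferase (0.27 and 0.63 FPKM at P30 and 6.29 and 5.55 FPKM at P56), complete the 12.

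The 12 largest falls were led by genes of the growing hair. The inner root sheath keratin Krt71 (ENSMUSG00000051879.3, GRCm38 chr15:101733949-101743109) stood at 79.5 and 87.4 FPKM at P30 and was listed at 0 in both P56 libraries. Krt27 and Krt28, of the same layer, stood at 27.5 and 27.3 FPKM and 28 and 28.2 FPKM at P30 and were listed at 0 at P56. The shaft keratins Krt35, Krt33a, Krt83 and Krt31, at 66.4 and 69.3 FPKM, 32.4 and 33.7 FPKM, 29.3 and 32.2 FPKM and 24.7 and 24 FPKM at P30, were also listed at 0 in both P56 libraries, as were the keratin-associated proteins Krtap8-1 (156 and 164 FPKM at P30), Krtap11-1 (36.4 and 37 FPKM) and Krtap15 (32.8 and 27.9 FPKM), and Prr9 (22.4 and 23.1 FPKM). S100a3, a calcium-binding protein of the hair cuticle, was the exception that remained measurable at P56: it went from 78.4 and 89.5 to 1.72 and 1.51 FPKM (log2 change -5.02 ± 0.09 SE, adjusted p = 4.0e-07). Shaft keratins and keratin-associated proteins are near copies of each other, so the split of reads among them is uncertain.

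Genes of non-leukocytes were therefore followed as lists. Here and below a list is counted over its members, leaving out genes that were X-linked or under the minimum. Beside each count stand the 3.01% of all members that rose and the 7.47% that fell. Of 24 hair matrix and shaft genes, 21 were members, and 19 of these fell and 0 rose (1 was higher at an unadjusted p under 0.05 in limma). Among them 14 were listed at 0 in both P56 libraries. The summed level of the list was 504 and 536 FPKM at P30, 75.1 and 79.3 FPKM at P56 and 461 and 474 FPKM in the mutant. Gata3, a matrix gene that T cells also express, made up most of the P56 sum (57.7 and 57.9 FPKM at P30 and 69.2 and 73.4 FPKM at P56). Lef1, a transcription factor of Wnt signalling, went from 7.7 and 8.79 to 1.04 and 1.07 FPKM (log2 change -2.17 ± 0.10 SE, adjusted p = 1.3e-05), and the homeobox gene Dlx3 went from 8.83 and 9.2 FPKM to a listed 0. The cells that this Lef1 RNA came from were not tested. In the mutant at P56, Krt71 was at 86.5 and 91.5 FPKM, Krt35 at 54.8 and 62 FPKM, Dlx3 at 13.2 and 12.9 FPKM and Lef1 at 13.3 and 12.2 FPKM, each near or above its WT level at P30 and far above that at P56. Other shaft genes were above WT P56 in the mutant but well below WT P30, with 28.4 and 27.7 FPKM of Krtap8-1, 6.62 and 6.61 FPKM of Krt33a, 5.94 and 5.73 FPKM of Krt83, 6.6 and 6.37 FPKM of Krt31 and 5.53 and 7.29 FPKM of Krtap15.

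Of 8 melanocyte markers among the members, 6 fell and 0 rose (0 at an unadjusted p under 0.05). Dct, Pmel, Tyrp1 and Mlana encode pigment-cell proteins of melanosomes. Dct went from 13.9 and 14.3 to 1.02 and 1.07 FPKM (log2 change -2.88 ± 0.08 SE, adjusted p = 2.3e-06). Pmel went from 15.2 and 16.6 to 0.38 and 0.33 FPKM (log2 change -3.64 ± 0.11 SE, adjusted p = 2.3e-06). Tyrp1 went from 8.28 and 8.61 to 0.62 and 0.8 FPKM (log2 change -2.47 ± 0.13 SE, adjusted p = 2.3e-05). Mlana went from 19.3 and 15.1 to 1.77 and 1.7 FPKM (log2 change -2.72 ± 0.15 SE, adjusted p = 2.2e-05). The summed level of the list was 65.8 and 63.5 FPKM at P30 and 7.97 and 8.66 FPKM at P56. Of 13 fibroblast markers, 6 fell and 1 rose. Collagen genes led the falls, with Col1a1 from 30.8 and 33.2 to 2.32 and 2.66 FPKM (log2 change -3.24 ± 0.10 SE, adjusted p = 2.6e-06). Col1a2 went from 17.1 and 18.5 to 1.19 and 0.99 FPKM (log2 change -3.17 ± 0.11 SE, adjusted p = 4.6e-06). Col3a1 went from 25.7 and 22.4 to 3.82 and 3.54 FPKM and the matrix protein Fbln1 from 4.75 and 4.49 to 0.43 and 0.37 FPKM, while Dpt, dermatopontin, rose from 1.89 and 1.69 to 4.93 and 4.64 FPKM. The fibroblast list summed to 378 and 386 FPKM at P30 and 279 and 274 FPKM at P56. It shares Thy1 with the T cell list, so this sum is not of fibroblast RNA alone.

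Keratinocyte markers were high at both ages. Of 20, 6 fell and 0 rose (1 was higher at an unadjusted p under 0.05), with a median log2 change of -0.92, and the list summed to 3822 and 3942 FPKM at P30 and 2430 and 2268 FPKM at P56. The differentiation keratin Krt10 went from 189.6 and 187 to 70.2 and 52.5 FPKM (log2 change -1.62 ± 0.13 SE, adjusted p = 0.00011). Krt1 went from 112 and 113 to 38.2 and 35.5 FPKM (log2 change -1.59 ± 0.07 SE, adjusted p = 8.9e-06). Loricrin (Lor) of the cornified envelope went from 2.92 and 3.32 to 0.04 and 0.12 FPKM and Perp, a desmosomal protein, from 374 and 365 to 142 and 143 FPKM. Krt14 of basal keratinocytes did not separate the ages, at 616 and 679 FPKM at P30 and 677 and 599 FPKM at P56 (adjusted p = 0.83 in limma). Globin genes fell in 3 of 4 cases, with Hba-a2 at 48.3 and 43.6 FPKM at P30 and 22.9 and 16.2 FPKM at P56, Hbb-bs at 18.7 and 21.9 FPKM at P30 and 10.2 and 5.67 FPKM at P56 and Hbb-bt at 7.24 and 6.52 FPKM at P30 and 1.75 and 2.29 FPKM at P56, and these are near copies. Of 6 endothelial and mural genes, 1 fell (Acta2, 3.34 and 3.66 FPKM at P30 and 1.29 and 1 FPKM at P56), and of 6 muscle and adipocyte genes 0 were called, while 2 were higher and 1 lower at an unadjusted p under 0.05. Mylpf, a myosin light chain of fast muscle, was at 8.49 and 6.64 FPKM at P30 and 13 and 11.3 FPKM at P56 and Fabp4, a fatty acid binding protein of adipocytes, at 13.3 and 11.9 FPKM at P30 and 12.2 and 11.7 FPKM at P56. Hair, pigment and fibroblast RNA thus moved with age in the sorted fraction, and its part in the changes of genes that leukocytes share with those cells was not tested.

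**Figure D2:**
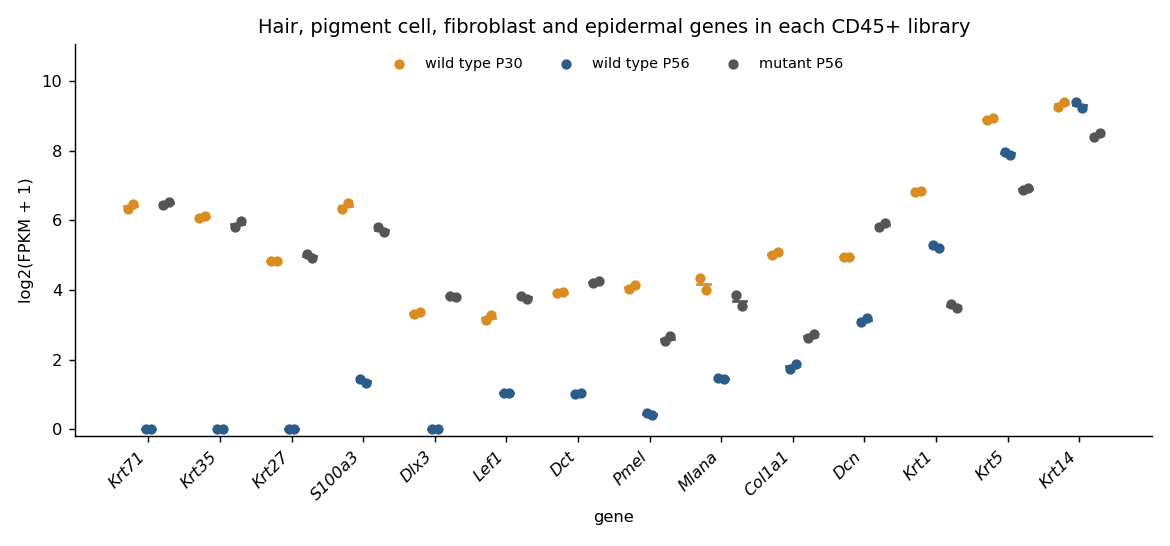
Levels of 14 genes of hair, pigment cells, fibroblasts and epidermis on a log2(FPKM + 1) axis, with 1 point per CD45+ library and a short bar at the mean of each group of 2. Krt71, Krt35, Krt27 and Dlx3 sit at 0 in both WT P56 libraries and well above 0 in WT P30 and mutant P56 libraries, while Krt14 lies at a like level at both WT ages.

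Across the immune lists the directions differed by lineage. Called members of the T cell, cytotoxic and gamma delta lists were higher at P56, and called members of the macrophage, monocyte, neutrophil, mast cell, basophil and B cell lists were lower. In the basophil and eosinophil list, 3 of the 4 called genes were listed at 0 in both P56 libraries. They met the minimum through P30 alone, so that list gives no direction for the lineage. The Langerhans cell list had no call. In a bulk sort, fewer cells of a type and less RNA per cell cannot be told apart, and FPKM are relative to the rest of the library.

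**Figure D3:**
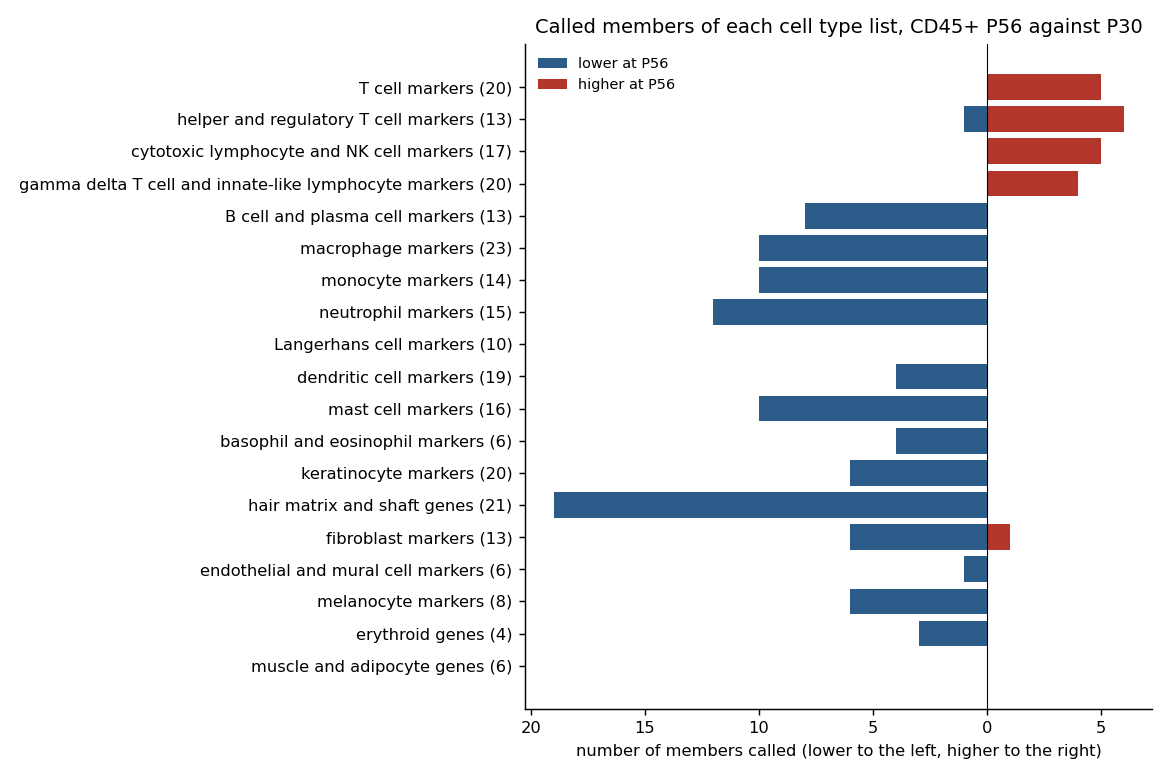
Bars give the number of members called lower (left of 0) and higher (right of 0) at P56 in each of 19 cell type lists, with the number of members in brackets. Among the immune lists, the 4 T and innate-like lymphocyte lists have 4 to 6 members to the right, and the neutrophil list has 12 of 15 to the left.

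All 20 T cell markers were members. Of these, 5 rose and 0 fell (1 was lower and 17 were higher at an unadjusted p under 0.05), with a median log2 change of 0.56. The 5 encode surface receptors. Cd6 went from 3.4 and 3.7 to 13.4 and 15.3 FPKM (log2 change 1.75 ± 0.09 SE, adjusted p = 1.8e-05). The costimulatory receptors Cd28 and Cd27 rose. Cd28 went from 4.85 and 5.08 to 16.4 and 15.5 FPKM (log2 change 1.51 ± 0.08 SE, adjusted p = 1.7e-05). Cd27 went from 27.5 and 27.5 to 74.5 and 81.9 FPKM (log2 change 1.47 ± 0.06 SE, adjusted p = 9.8e-06). Cd5, an inhibitory receptor, went from 4.64 and 4.51 to 14.2 and 13.8 FPKM (log2 change 1.43 ± 0.07 SE, adjusted p = 1.5e-05). The adhesion molecule Cd2 went from 214 and 215 to 515 and 519 FPKM (log2 change 1.27 ± 0.05 SE, adjusted p = 4.8e-06). In each of these 5 genes both P56 libraries lay well above both P30 libraries. Chains of the receptor complex moved less and not together. Cd3g stood at 3055 and 3172 FPKM at P30 and 4381 and 4420 FPKM at P56 and Cd3d at 428 and 446 FPKM at P30 and 678 and 663 FPKM at P56, with log2 changes of 0.50 and 0.62, while Cd3e was lower at P56 in both libraries, at 1364 and 1391 FPKM at P30 and 885 and 959 FPKM at P56 (log2 change -0.58 ± 0.05 SE, adjusted p = 0.00016). The transcription factors Tcf7 (63.3 and 66.7 FPKM at P30 and 65 and 65 FPKM at P56) and Bcl11b (24.8 and 24.9 FPKM at P30 and 26.7 and 24.3 FPKM at P56) had limma adjusted p of 1 and 0.81.

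Of 13 helper and regulatory T cell markers, 6 rose and 1 fell, with a median log2 change of 0.93. Tigit, an inhibitory receptor, went from 24.7 and 24.3 to 107 and 95.9 FPKM (log2 change 2.002 ± 0.08 SE, adjusted p = 6.4e-06). The chemokine receptor Ccr8 went from 25.6 and 30.8 to 114 and 111 FPKM (log2 change 1.97 ± 0.09 SE, adjusted p = 1.2e-05). The costimulatory receptors Icos and Tnfrsf4 rose. Icos went from 15.6 and 16.6 to 61.5 and 59.8 FPKM (log2 change 1.85 ± 0.06 SE, adjusted p = 3.0e-06). Tnfrsf4 went from 10.1 and 10.9 to 29.1 and 30.1 FPKM (log2 change 1.41 ± 0.08 SE, adjusted p = 2.2e-05). Il2ra, the alpha chain of the interleukin 2 receptor, went from 2.37 and 2.78 to 8.56 and 7.36 FPKM, and the transcription factor Ikzf2 went from 11.5 and 10.5 to 23.8 and 24.3 FPKM. The exception was the cytokine Il10, which macrophages also make and which went from 22.1 and 21.4 to 9.96 and 9.77 FPKM (log2 change -1.07 ± 0.07 SE, adjusted p = 4.4e-05). Foxp3, the defining factor of regulatory T cells, is X-linked and was left out by the rule. Cd4 was low at both ages, at 3.69 and 3.9 FPKM at P30 and 8.03 and 7.57 FPKM at P56, and below the 2-fold limit (log2 change 0.88 ± 0.08 SE, adjusted p = 0.00019).

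Of 17 cytotoxic lymphocyte and NK cell markers, 5 rose and 0 fell (0 at an unadjusted p under 0.05), with a median log2 change of 0.45. The most abundant of the 5 was Xcl1, the chemokine that attracts Xcr1+ dendritic cells (ENSMUSG00000026573.7, GRCm38 chr1:164931644-164935527). It stood at 491 and 516 FPKM at P30 and 1793 and 1778 FPKM at P56, so that every P56 value was over 3 times every P30 value (log2 change 1.82 ± 0.05 SE, adjusted p = 1.4e-06), and at 862 and 858 FPKM in the mutant. Granzyme B (Gzmb) went from 5.84 and 5.15 to 19.2 and 19.6 FPKM (log2 change 1.65 ± 0.07 SE, adjusted p = 1.2e-05). Cd8b1 went from 2.3 and 2.01 to 7.31 and 6.34 FPKM (log2 change 1.31 ± 0.10 SE, adjusted p = 7.5e-05). The transcription factor Tbx21 went from 4.17 and 3.58 to 8.95 and 9.71 FPKM (log2 change 1.09 ± 0.09 SE, adjusted p = 0.00013). Abundant effector genes of the list stayed below 2-fold, with Nkg7 at 2297 and 2460 FPKM at P30 and 3168 and 3135 FPKM at P56 and perforin (Prf1) at 306 and 319 FPKM at P30 and 385 and 369 FPKM at P56. Ncr1 of NK cells was at 2.95 and 2.63 FPKM at P30 and 2.62 and 2.58 FPKM at P56 (adjusted p = 0.58 in limma).

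Of 20 gamma delta T cell and innate-like lymphocyte markers, 4 rose and 0 fell (2 were lower at an unadjusted p under 0.05), with a median log2 change of 0.52. Besides Il22 and Cxcr6 these were the cytokines Il17f, which went from 3.96 and 4.44 to 13.5 and 14.4 FPKM (log2 change 1.52 ± 0.08 SE, adjusted p = 1.7e-05), and Il17a, which went from 6.3 and 5.65 to 15 and 15.8 FPKM (log2 change 1.23 ± 0.07 SE, adjusted p = 2.8e-05). Mutant libraries held 298 and 287 FPKM of Il17a, far above both WT ages. The abundant Cd7 (3215 and 3364 FPKM at P30 and 4129 and 4112 FPKM at P56) and Fcer1g (2761 and 2874 FPKM at P30 and 3196 and 3317 FPKM at P56) had log2 changes of 0.33 and 0.21. Itgae, the alpha E integrin of epidermal lymphocytes, was at 139 and 144 FPKM at P30 and 229 and 217 FPKM at P56 (log2 change 0.66 ± 0.06 SE, adjusted p = 0.00012).

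**Figure D4:**
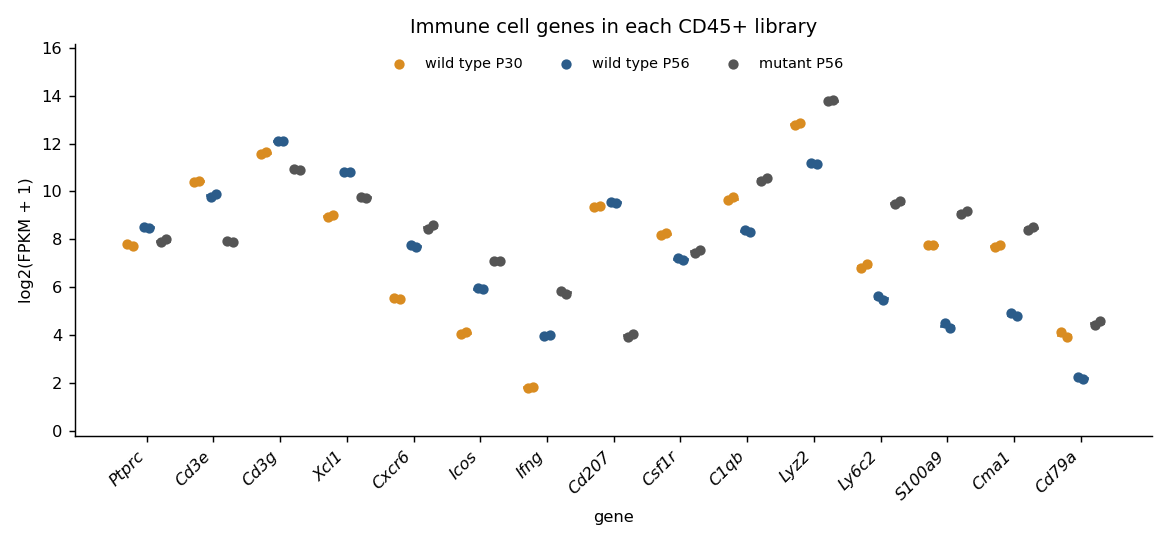
Levels of 15 immune cell genes on a log2(FPKM + 1) axis, with 1 point per CD45+ library and a short bar at the mean of each group of 2. Xcl1, Cxcr6, Icos and Ifng are higher in both WT P56 libraries than in both WT P30 libraries, while Csf1r, C1qb, Lyz2, Ly6c2, S100a9, Cma1 and Cd79a are lower, and Cd207 is low in the mutant libraries alone.

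Among 33 cytokine genes, 7 rose and 7 fell, and the cells known to make them differ. Those that rose were Csf2, Il22, Ifng, Il17f, Il12b, Il17a and Ltb, of which all but Il12b are products of lymphocytes. Ifng, interferon gamma, went from 2.47 and 2.64 to 14.6 and 15.1 FPKM (log2 change 2.16 ± 0.08 SE, adjusted p = 4.6e-06). Lymphotoxin beta (Ltb) went from 55.5 and 58 to 125 and 114 FPKM (log2 change 1.06 ± 0.09 SE, adjusted p = 0.00012). Those that fell were Il1b, Tnfsf13b, Il1a, Tgfb1, Il6, Il10 and Osm. Il1b, the inflammatory cytokine of myeloid cells, went from 447 and 451 to 81.8 and 80.4 FPKM (log2 change -2.46 ± 0.05 SE, adjusted p = 4.5e-07). Il1a went from 10.5 and 9.8 to 2.82 and 3.04 FPKM (log2 change -1.504 ± 0.08 SE, adjusted p = 2.6e-05). Oncostatin M (Osm) went from 22.5 and 24.3 to 10.3 and 11 FPKM (log2 change -1.06 ± 0.07 SE, adjusted p = 4.0e-05) and was at 113 and 111 FPKM in the mutant. Tumour necrosis factor (Tnf) changed by less than 2-fold, at 127 and 123 FPKM at P30 and 135 and 142 FPKM at P56 (log2 change 0.15 ± 0.05 SE, adjusted p = 0.041).

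Of 26 chemokines, 2 rose and 5 fell, with a median log2 change of -0.53. Ccl1, the ligand of Ccr8, rose with Xcl1, from 7.06 and 6.71 to 15.5 and 15.6 FPKM (log2 change 1.07 ± 0.08 SE, adjusted p = 8.6e-05). Ccl9 and Ccl6, chemokines of myeloid cells, fell. Ccl9 went from 333 and 345 to 119 and 121 FPKM (log2 change -1.49 ± 0.05 SE, adjusted p = 3.2e-06). Ccl6 went from 833 and 828 to 286 and 307 FPKM (log2 change -1.48 ± 0.05 SE, adjusted p = 4.3e-06). The neutrophil attractants Cxcl2 and Cxcl1 fell. Cxcl2 went from 749.8 and 774 to 297 and 318 FPKM (log2 change -1.31 ± 0.08 SE, adjusted p = 3.5e-05). Cxcl1 went from 144 and 134 to 54.8 and 62.3 FPKM (log2 change -1.24 ± 0.08 SE, adjusted p = 3.5e-05). Ccl4 went from 301 and 294 to 129 and 128 FPKM (log2 change -1.21 ± 0.05 SE, adjusted p = 8.9e-06). Of 17 chemokine receptors, Cxcr6 and Ccr8 rose, and Ccr2 and Ccrl2 fell. Ccr2 of monocytes went from 73.5 and 72.4 to 33.4 and 36 FPKM (log2 change -1.05 ± 0.06 SE, adjusted p = 2.1e-05). Ccrl2 went from 211 and 209.6 to 93.7 and 92.7 FPKM (log2 change -1.17 ± 0.05 SE, adjusted p = 6.5e-06). Xcr1, the receptor for Xcl1, was low at 2.05 and 1.86 FPKM at P30 and 3.69 and 4.14 FPKM at P56 (log2 change 0.73 ± 0.10 SE, adjusted p = 0.001).

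Langerhans cell markers were abundant and changed little. Of 10 members 0 were called, with 2 higher and 7 lower at an unadjusted p under 0.05 and a median log2 change of -0.32. Cd207 stood at 646 and 663 FPKM at P30 and 765 and 735 FPKM at P56 (log2 change 0.20 ± 0.06 SE, adjusted p = 0.02) and Mfge8, a bridging protein in the uptake of dying cells, at 576 and 614 FPKM at P30 and 446 and 414 FPKM at P56 (log2 change -0.47 ± 0.07 SE, adjusted p = 0.0014). Epcam, the adhesion molecule that Langerhans cells share with epithelium, was at 155 and 155 FPKM at P30 and 100.3 and 102 FPKM at P56 (log2 change -0.61 ± 0.06 SE, adjusted p = 0.00018). The mutant CD45+ libraries stood apart from both WT ages here, with 14.4 and 15.6 FPKM of Cd207 and 23.5 and 25.4 FPKM of Epcam. This did not hold for Cd207 in the separate sort of myeloid cells described below.

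Of 19 dendritic cell markers, 4 fell and 0 rose (4 were higher at an unadjusted p under 0.05). The lectin Clec10a went from 122 and 124 to 59.7 and 57.4 FPKM (log2 change -1.06 ± 0.05 SE, adjusted p = 1.3e-05). Siglech of plasmacytoid dendritic cells went from 4.17 and 4.69 to 1.22 and 1.49 FPKM (log2 change -1.21 ± 0.12 SE, adjusted p = 0.00022). Fscn1 went from 6.3 and 5.88 to 2.34 and 1.92 FPKM (log2 change -1.18 ± 0.12 SE, adjusted p = 0.00028). Naaa went from 122 and 128 to 61.4 and 60.3 FPKM (log2 change -1.02 ± 0.07 SE, adjusted p = 4.2e-05). Zbtb46, a transcription factor of conventional dendritic cells, was at 7.66 and 7.07 FPKM at P30 and 9.35 and 8.79 FPKM at P56 (log2 change 0.27 ± 0.09 SE, adjusted p = 0.038). Of 22 antigen presentation genes 2 fell, near the 7.47% of all members that fell, and 0 rose (7 were higher at an unadjusted p under 0.05). They were the class II invariant chain Cd74, the gene with the highest level of the members at P30, which went from 21431 and 23076 to 8261 and 8034 FPKM (log2 change -1.45 ± 0.06 SE, adjusted p = 6.9e-06), and H2-Aa, which went from 8607 and 9129 to 4180 and 4098 FPKM (log2 change -1.10 ± 0.05 SE, adjusted p = 1.5e-05). Under quantile normalization Cd74 was not called, with a log2 change of -0.67. The other class II chains lay below 2-fold, with H2-Eb1 at 8278 and 8717 FPKM at P30 and 4658 and 4483 FPKM at P56 and H2-Ab1 at 9630 and 10610 FPKM at P30 and 7108 and 6884 FPKM at P56. Of the class I genes H2-K1 was at 1416 and 1539 FPKM at P30 and 2236 and 2193 FPKM at P56 (log2 change 0.58 ± 0.06 SE, adjusted p = 0.00019). B2m was at 3394 and 3316 FPKM at P30 and 4095 and 4506 FPKM at P56 (log2 change 0.36 ± 0.06 SE, adjusted p = 0.0026), and both were higher by less than 2-fold. Histocompatibility genes of this family are near copies, so their split is uncertain.

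Of 23 macrophage markers, 10 fell and 0 rose (0 at an unadjusted p under 0.05), with a median log2 change of -0.96. Lyve1, a hyaluronan receptor of perivascular macrophages and lymphatic vessels, went from 21.9 and 19.9 to 2.93 and 2.85 FPKM (log2 change -2.49 ± 0.09 SE, adjusted p = 4.6e-06). Fcgr1, the high-affinity IgG receptor, went from 17.7 and 15.8 to 5.27 and 4.6 FPKM (log2 change -1.58 ± 0.09 SE, adjusted p = 2.7e-05). The complement component C1qb went from 803 and 864 to 333 and 314 FPKM (log2 change -1.36 ± 0.06 SE, adjusted p = 1.1e-05). Csf1r, the receptor for macrophage colony-stimulating factor, went from 288 and 304 to 149 and 139.6 FPKM (log2 change -1.03 ± 0.07 SE, adjusted p = 4.3e-05). Adgre1, which encodes F4/80, was lower in both P56 libraries by less than 2-fold, at 87.8 and 87.5 FPKM at P30 and 58.2 and 56 FPKM at P56 (log2 change -0.61 ± 0.06 SE, adjusted p = 0.00018). Summed over the list, levels were 4594 and 4779 FPKM at P30, 2427 and 2342 FPKM at P56 and 6611 and 7023 FPKM in the mutant.

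Of 14 monocyte markers, 10 fell and 0 rose (1 was higher at an unadjusted p under 0.05), with a median log2 change of -1.40. Chil3 went from 22.8 and 25 to 5.15 and 4.06 FPKM (log2 change -2.16 ± 0.12 SE, adjusted p = 2.2e-05). The IgG receptor Fcgr4 went from 10.5 and 12.9 to 2.71 and 2.73 FPKM (log2 change -1.76 ± 0.10 SE, adjusted p = 2.8e-05). Plac8 went from 73.7 and 70.7 to 19.8 and 22.9 FPKM (log2 change -1.72 ± 0.08 SE, adjusted p = 1.1e-05). Ly6c2, a surface marker of circulating monocytes, went from 112 and 124 to 48.8 and 43.3 FPKM, and lysozyme (Lyz2) went from 6969 and 7412 to 2335 and 2241 FPKM. The exception in sign was the fractalkine receptor Cx3cr1, at 30.7 and 32.7 FPKM at P30 and 55.9 and 50.9 FPKM at P56 (log2 change 0.73 ± 0.07 SE, adjusted p = 0.00022). In the mutant, Plac8 was at 378 and 399 FPKM and Ly6c2 at 708 and 775 FPKM, above both WT ages.

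Neutrophil markers had the largest share of calls among the immune lists. Of 15, 12 fell and 0 rose (0 at an unadjusted p under 0.05), with a median log2 change of -1.61, or -1.63 without Camp, which was listed at 0 in both P56 libraries. S100a8 and S100a9, the subunits of calprotectin, both fell. S100a8 went from 149.9 and 154 to 24.9 and 21 FPKM (log2 change -2.68 ± 0.08 SE, adjusted p = 2.4e-06). S100a9 went from 218 and 218 to 21.9 and 18.6 FPKM (log2 change -3.37 ± 0.08 SE, adjusted p = 9.0e-07). The granule protein Ngp went from 11 and 11.5 to 0 and 0.09 FPKM (log2 change -3.55 ± 0.14 SE, adjusted p = 6.4e-06). The receptor Trem1 went from 12.2 and 13.1 to 1.39 and 1.44 FPKM (log2 change -2.496 ± 0.09 SE, adjusted p = 4.5e-06). Mutant values were 690.5 and 685 FPKM of S100a8 and 541 and 578 FPKM of S100a9. Several of these genes are also expressed by monocytes, and Ltf, a granule gene of the same list, did not separate the ages (4.29 and 2.68 FPKM at P30 and 1.84 and 3.42 FPKM at P56; adjusted p = 0.34 in limma).

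Mast cell proteases fell. Of 16 mast cell markers, 10 fell and 0 rose (1 was higher at an unadjusted p under 0.05), with a median log2 change of -1.45. The chymases Cma1 and Mcpt4 fell. Cma1 went from 204 and 218 to 29.1 and 27.2 FPKM (log2 change -2.86 ± 0.07 SE, adjusted p = 9.0e-07). Mcpt4 went from 214 and 212 to 39.6 and 41.3 FPKM (log2 change -2.37 ± 0.05 SE, adjusted p = 6.1e-07). The tryptase Tpsb2 went from 162 and 179 to 24.2 and 25.2 FPKM (log2 change -2.73 ± 0.06 SE, adjusted p = 9.0e-07). Its near copy Tpsab1 was at 7.7 and 7.92 FPKM at P30 and listed at 0 at P56. Kit, the stem cell factor receptor that mast cells and melanocytes share, was low and not called, at 3.01 and 3.94 FPKM at P30 and 2.09 and 2.87 FPKM at P56 (log2 change -0.36 ± 0.15 SE, adjusted p = 0.072). Mutant libraries held 337 and 367 FPKM of Cma1 and 275 and 282 FPKM of Tpsb2. Of 6 basophil and eosinophil markers among the members, 4 fell and 0 rose (2 were higher at an unadjusted p under 0.05). Another 4 of the 10 listed genes were under the minimum. The median log2 change was -1.97, or 0.33 without the 3 genes listed at 0 in both P56 libraries. Prss34, Cd200r3 and Mcpt8 were at 4.83 and 4.58 FPKM, 3.47 and 3.62 FPKM and 2.48 and 2.51 FPKM at P30 and listed at 0 in both P56 libraries, and Siglecf of eosinophils went from 7.29 and 7.35 to 0.96 and 0.83 FPKM (log2 change -2.14 ± 0.14 SE, adjusted p = 4.6e-05).

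B cell genes were low and fell. Of 13 B cell and plasma cell markers, 8 fell and 0 rose (0 at an unadjusted p under 0.05), with a median log2 change of -1.11. The signalling chains of the B cell receptor, Cd79a and Cd79b, both fell. Cd79a went from 16.5 and 14.2 to 3.86 and 3.48 FPKM (log2 change -1.81 ± 0.11 SE, adjusted p = 3.0e-05). Cd79b went from 11.8 and 11.2 to 3.7 and 3.75 FPKM (log2 change -1.40 ± 0.09 SE, adjusted p = 4.8e-05). Fcmr, the IgM receptor, went from 7.16 and 5.99 to 0.63 and 0.87 FPKM (log2 change -2.11 ± 0.13 SE, adjusted p = 3.8e-05). Cd22 went from 1.61 and 2.86 to 0.02 and 0.34 FPKM (log2 change -1.44 ± 0.21 SE, adjusted p = 0.0012). The list summed to 108 and 107 FPKM at P30, 52.5 and 49.8 FPKM at P56 and 174 and 191 FPKM in the mutant.

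Of 19 complement and coagulation genes, 10 fell and 0 rose (0 at an unadjusted p under 0.05), with a median log2 change of -1.05. They included C1qb. The inhibitor Serping1 went from 6.92 and 6.2 to 0.71 and 0.82 FPKM (log2 change -2.10 ± 0.12 SE, adjusted p = 2.8e-05). Coagulation factor F10 went from 6.71 and 7.68 to 2.01 and 1.42 FPKM (log2 change -1.60 ± 0.12 SE, adjusted p = 8.6e-05). The central component C3 went from 5.32 and 4.13 to 0.96 and 1.49 FPKM (log2 change -1.37 ± 0.21 SE, adjusted p = 0.0013). Of 20 lysosome and lipid handling genes, 5 fell and 0 rose (1 was higher at an unadjusted p under 0.05). Gpnmb, a glycoprotein of lipid-laden macrophages and of pigment cells, went from 14.2 and 15.2 to 0.68 and 1.05 FPKM (log2 change -3.08 ± 0.11 SE, adjusted p = 4.6e-06). The fatty acid binding protein Fabp5 went from 188 and 192 to 40.6 and 33.2 FPKM (log2 change -2.34 ± 0.10 SE, adjusted p = 8.4e-06). The lipid receptor Trem2 went from 22 and 23.9 to 7.09 and 8.98 FPKM (log2 change -1.41 ± 0.12 SE, adjusted p = 0.0001). Lipoprotein lipase (Lpl) went from 107 and 111 to 47.3 and 42.4 FPKM (log2 change -1.26 ± 0.07 SE, adjusted p = 1.9e-05). Spp1, osteopontin, was at 22.1 and 19.4 FPKM at P30 and 17.3 and 16.1 FPKM at P56 (log2 change -0.30 ± 0.08 SE, adjusted p = 0.02), against 402 and 445 FPKM in the mutant. Of 21 alternative activation and resident macrophage genes, 6 fell and 0 rose (5 were higher at an unadjusted p under 0.05). Besides Lyve1, Chil3 and Clec10a they included the scavenger receptor Cd36, from 37.4 and 37.8 to 13.8 and 14.2 FPKM (log2 change -1.36 ± 0.06 SE, adjusted p = 7.6e-06), and the neonatal Fc receptor Fcgrt, from 123 and 133 to 57.9 and 54.7 FPKM (log2 change -1.17 ± 0.06 SE, adjusted p = 2.2e-05). Retnla, by contrast, was at 2295 and 2374 FPKM at P30 and 2924 and 2811 FPKM at P56 (log2 change 0.30 ± 0.05 SE, adjusted p = 0.0026), and Igf1 at 17.7 and 18.4 FPKM at P30 and 16.4 and 15.2 FPKM at P56 (log2 change -0.18 ± 0.07 SE, adjusted p = 0.067).

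Of 34 mitosis genes, 10 fell and 0 rose (1 was higher at an unadjusted p under 0.05), with a median log2 change of -0.74. Cyclin B1 (Ccnb1) went from 10.2 and 15.2 to 2.25 and 3.08 FPKM (log2 change -1.89 ± 0.19 SE, adjusted p = 0.00025). Cyclin A2 (Ccna2) went from 10.4 and 9.42 to 3.11 and 2.99 FPKM (log2 change -1.43 ± 0.10 SE, adjusted p = 5.5e-05). The ubiquitin-conjugating enzyme Ube2c went from 21 and 20.0 to 7.05 and 7.17 FPKM (log2 change -1.41 ± 0.07 SE, adjusted p = 1.5e-05). Cdca3 went from 12.2 and 10.8 to 4.39 and 3.52 FPKM (log2 change -1.33 ± 0.14 SE, adjusted p = 0.00027). Mki67, the proliferation antigen Ki-67, was near the minimum level and did not separate the ages, at 2.08 and 1.68 FPKM at P30 and 2.2 and 1.96 FPKM at P56 (adjusted p = 0.49 in limma). The higher gene at an unadjusted p was the centromere histone Cenpa, at 112 and 108 FPKM at P30 and 184 and 187 FPKM at P56. Of 33 DNA replication genes, 7 fell and 0 rose (5 were higher at an unadjusted p under 0.05), among them Uhrf1, from 11.1 and 10.4 to 3.72 and 3.93 FPKM (log2 change -1.28 ± 0.09 SE, adjusted p = 5.0e-05), E2f2, from 3.68 and 2.78 to 0.6 and 0.67 FPKM (log2 change -1.36 ± 0.13 SE, adjusted p = 0.00019), and Rfc5, from 19.8 and 15.5 to 7.87 and 6.96 FPKM (log2 change -1.14 ± 0.14 SE, adjusted p = 0.00053), and Mcm10 was listed at 0 at P56. With a pseudocount of 5, 2 mitosis genes and 0 DNA replication genes were called lower, and with a pseudocount of 0.1, 19 and 9 were. The summed level of the DNA replication list was higher at P56, at 579 and 583 FPKM at P30 and 647 and 637 FPKM at P56. Matrix cells of the anagen follicle divide as well, the hair list moved the same way, and its part in these counts was not tested.

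Promoters of 3 of these genes are printed to show the letters they share, as RefSeq gives them on GRCm38.p6. Each line holds the 250 bases before RefSeq's start, 5′ to 3′ on the gene's strand. Capitals mark matches to CCAAT (bound by NF-Y) and to TTTGAA, on either strand. The Cdca3 line lies within the gene as GENCODE places it (chr6:124829547-124833701), since RefSeq's start is further downstream. The other lines run partly into their genes as GENCODE places them (Ccnb1 at chr13:100778650-100786570 and Ube2c at chr2:164769898-164778822). The nearer CCAAT match of Ccnb1 and the TTTGAA match of Ube2c lie in those parts. The Ccnb1 line is chr13:100786487-100786736 (minus strand), the Ube2c line is chr2:164769679-164769928 (plus strand) and the Cdca3 line is chr6:124829926-124830175 (plus strand).
Ccnb1: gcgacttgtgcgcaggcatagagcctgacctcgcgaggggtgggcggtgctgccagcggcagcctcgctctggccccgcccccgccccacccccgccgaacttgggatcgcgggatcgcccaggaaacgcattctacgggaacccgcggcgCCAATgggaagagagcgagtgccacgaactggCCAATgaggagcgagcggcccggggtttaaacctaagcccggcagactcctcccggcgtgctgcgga
Ube2c: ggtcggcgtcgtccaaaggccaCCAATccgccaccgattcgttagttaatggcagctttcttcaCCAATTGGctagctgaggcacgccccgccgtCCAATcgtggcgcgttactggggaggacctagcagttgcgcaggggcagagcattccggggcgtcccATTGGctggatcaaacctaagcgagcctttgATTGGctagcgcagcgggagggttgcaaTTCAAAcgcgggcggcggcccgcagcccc
Cdca3: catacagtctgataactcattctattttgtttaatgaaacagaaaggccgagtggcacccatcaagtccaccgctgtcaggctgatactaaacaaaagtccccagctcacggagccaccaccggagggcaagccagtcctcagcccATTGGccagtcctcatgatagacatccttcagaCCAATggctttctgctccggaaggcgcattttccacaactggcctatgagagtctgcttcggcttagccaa

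Ccnb1 held 2 CCAAT matches, at 99 and 67 bases before the start, and Cdca3 held 2, at 104 and 71 bases. Ube2c held 6 CCAAT matches, of which a pair overlapped, and 1 TTTGAA match 29 bases before the start. Over the 30 mitosis genes with a promoter in the table, CCAAT was present in 23 (76.7%) and TTTGAA in 10 (33.3%), beside 34.5% and 16.3% of 27025 promoters of the same length. The E-box CACGTG, searched as well, was in 1 of the 30 (3.33%), beside 6.05% of all promoters. CCAAT was present in 7 of the 8 that fell and in 16 of the 22 that were not called. These are matches of letters and not bound sites.

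Of 23 interferon response genes, 1 rose and 3 fell, with a median log2 change of -0.24. Bst2, tetherin, which holds budding virus at the membrane, went from 119.5 and 131 to 281 and 265 FPKM (log2 change 1.117 ± 0.07 SE, adjusted p = 4.9e-05). Mx1, a GTPase of antiviral defence, went from 2.67 and 2.99 to 0.47 and 0.54 FPKM (log2 change -1.35 ± 0.10 SE, adjusted p = 7.4e-05). The oligoadenylate synthetases Oas2 and Oas1a fell. Oas2 went from 7.23 and 8.44 to 2.76 and 2.22 FPKM (log2 change -1.34 ± 0.12 SE, adjusted p = 0.00013). Oas1a went from 23.4 and 24.1 to 10.2 and 10.2 FPKM (log2 change -1.15 ± 0.06 SE, adjusted p = 2.4e-05). With a pseudocount of 5 none of these 3 falls was called. Oas genes are near copies. To show that a like motif lies at genes that moved in opposite directions, the 250 bases before the start of Bst2 (chr8:71537473-71537722 (minus strand)) and of Oas1a (chr5:120907526-120907775 (minus strand)) are printed from RefSeq, GRCm38.p6, with capitals for the core of the interferon-stimulated response element on either strand.
Bst2: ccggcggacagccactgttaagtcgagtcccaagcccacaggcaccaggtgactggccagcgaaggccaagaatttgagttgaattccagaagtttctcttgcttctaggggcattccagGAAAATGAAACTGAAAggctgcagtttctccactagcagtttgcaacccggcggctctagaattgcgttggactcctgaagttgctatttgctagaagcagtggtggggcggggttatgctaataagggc
Oas1a: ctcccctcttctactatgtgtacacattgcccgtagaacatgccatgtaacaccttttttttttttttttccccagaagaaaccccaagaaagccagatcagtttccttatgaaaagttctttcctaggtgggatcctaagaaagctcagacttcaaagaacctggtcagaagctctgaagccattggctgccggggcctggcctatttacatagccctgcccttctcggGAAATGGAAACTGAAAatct

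Each of the 2 promoters held 2 overlapping matches, starting 130 and 124 bases before the start of Bst2 and 20 and 14 bases before that of Oas1a. Of 17 interferon response genes with a promoter in RefSeq's table, the motif was in 11 (64.7%), beside 3.04% of all promoters, and of the 15 that were not called 9 held it.

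Most early response genes were not called, as was true of members at large, of which 10.5% were called in either direction. Of 32 immediate early and stress genes, 3 fell and 0 rose (8 were higher at an unadjusted p under 0.05). Klf2, a transcription factor of resting lymphocytes (ENSMUSG00000055148.7, GRCm38 chr8:72319033-72321656), went from 122 and 124 to 11.3 and 10.3 FPKM (log2 change -3.39 ± 0.07 SE, adjusted p = 6.1e-07), so that each P30 library held over 10 times the level of each P56 library. Jund went from 142 and 143 to 47.4 and 47.7 FPKM (log2 change -1.56 ± 0.05 SE, adjusted p = 4.3e-06). The chaperone Hspa1a went from 155 and 165 to 82.4 and 74.3 FPKM (log2 change -1.02 ± 0.09 SE, adjusted p = 0.00012). Fos, at 4653 and 4871 FPKM at P30 and 5071 and 4820 FPKM at P56, and Junb, at 3720 and 3951 FPKM at P30 and 5142 and 4893 FPKM at P56, were among the most abundant of the list and were not called. Of 23 NF-kappaB target genes, 3 fell, beside 7.47% of all members, and 0 rose (6 were higher at an unadjusted p under 0.05). The 3 were Il1b, Cxcl2 and Ccl4 given above.

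Calls in the metabolic and housekeeping lists were near or below the share of all members called in either direction (10.5%). Hexokinase 2 (Hk2) went from 35 and 31.1 to 129 and 137 FPKM (log2 change 1.98 ± 0.13 SE, adjusted p = 4.2e-05). The lactate transporter Slc16a3 went from 33.8 and 35.1 to 14.3 and 14.1 FPKM (log2 change -1.22 ± 0.06 SE, adjusted p = 1.9e-05). These were the 2 calls among 21 glycolysis and hypoxia genes. Sdhd, a subunit of succinate dehydrogenase, went from 30.3 and 29.6 to 87.4 and 79 FPKM (log2 change 1.44 ± 0.08 SE, adjusted p = 2.6e-05) and was the 1 call among 27 oxidative phosphorylation genes. In cholesterol synthesis Idi1 rose, from 9.78 and 8.6 to 20.3 and 21.2 FPKM (log2 change 1.10 ± 0.09 SE, adjusted p = 0.00011), and Pmvk fell, from 109 and 119 to 60.1 and 52.5 FPKM (log2 change -1.01 ± 0.09 SE, adjusted p = 0.00014), among 19 genes. Of 16 clock genes Hlf rose, from 0.82 and 0.95 to 2.98 and 2.67 FPKM (log2 change 1.02 ± 0.11 SE, adjusted p = 0.0003), and 0 fell (6 were lower at an unadjusted p under 0.05). Ribosomal protein genes had a median log2 change of -0.41, with 25 of 30 lower at an unadjusted p under 0.05 and 2 called, Rpl10a (from 474 and 454 to 211 and 183 FPKM) and Rpl8 (from 986 and 1033 to 492 and 449 FPKM), and 0 higher at either threshold.

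Among 18 integrins and adhesion genes 1 rose and 1 fell, near the 10.5% of all members called in either direction. The one that rose was Itgav, the alpha V integrin, from 31.8 and 33 to 74.3 and 73.8 FPKM (log2 change 1.17 ± 0.05 SE, adjusted p = 1.3e-05). Cd44, a receptor for hyaluronan and osteopontin, was at 277 and 270.3 FPKM at P30 and 329.9 and 337 FPKM at P56 (log2 change 0.28 ± 0.05 SE, adjusted p = 0.0017). Among 14 matrix proteases and inhibitors 1 rose and 4 fell. Mmp12, macrophage elastase, rose from 2.11 and 3.06 to 15.9 and 13.4 FPKM (log2 change 2.13 ± 0.14 SE, adjusted p = 4.2e-05), with 205 and 215 FPKM in the mutant. Gelatinase A (Mmp2) fell from 3.75 and 3.73 to 0.49 and 0.53 FPKM (log2 change -1.65 ± 0.10 SE, adjusted p = 3.3e-05). The inhibitors Timp2 and Timp3 fell. Timp2 went from 32.4 and 28 to 11.4 and 9.83 FPKM (log2 change -1.43 ± 0.11 SE, adjusted p = 9.3e-05). Timp3 went from 4.23 and 4.26 to 0.92 and 1.14 FPKM (log2 change -1.37 ± 0.10 SE, adjusted p = 6.8e-05).

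Of 23 growth factors with known effects on hair follicles that met the minimum, 10 of the list being under it, 7 fell and 0 rose (4 were higher at an unadjusted p under 0.05), with a median log2 change of -0.45. Inhba, a subunit of activin, went from 8.47 and 8.34 to 0.08 and 0.21 FPKM (log2 change -3.04 ± 0.10 SE, adjusted p = 4.3e-06). Bmp4 went from 6.9 and 7.52 to 1.99 and 2.42 FPKM (log2 change -1.36 ± 0.13 SE, adjusted p = 0.00021). Bmp7 went from 7.03 and 7.89 to 3.27 and 2.64 FPKM (log2 change -1.10 ± 0.12 SE, adjusted p = 0.00033). Wnt5a went from 2.07 and 3.09 to 0.34 and 0.21 FPKM (log2 change -1.48 ± 0.16 SE, adjusted p = 0.00035). Fgf5, which ends anagen, was at 1.22 and 2.23 FPKM at P30 and listed at 0 at P56. The list also held apolipoprotein E (Apoe), a lipid carrier and not a growth factor, which went from 4307 and 4769 to 2248 and 2063 FPKM (log2 change -1.07 ± 0.09 SE, adjusted p = 0.00013), and without it 6 of 22 fell. The Wnt ligands Wnt7b, at 3.67 and 4.59 FPKM at P30 and 1.86 and 1.94 FPKM at P56 (log2 change -0.82 ± 0.12 SE, adjusted p = 0.0012), and Wnt10a, at 8.51 and 10.0 FPKM at P30 and 6.8 and 6.17 FPKM at P56 (log2 change -0.45 ± 0.15 SE, adjusted p = 0.035), were not called. Follicle and fibroblast cells express several of these genes, the hair and fibroblast lists fell with them, and the part of those cells was not tested.

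Sorted myeloid cells of WT skin at the same ages give a second view. They form another table, normalized separately, so changes are set side by side without a test between the sorts. Of 12195 genes tested there, 7.65% were called higher and 6.39% lower at P56. Of the 351 CD45+ members that rose, 268 were tested in myeloid cells, where 11 (4.10%) were higher and 45 (16.8%) lower. Of the 871 that fell, 711 were tested, where 83 (11.7%) were higher and 96 (13.5%) lower. Macrophage markers differed between the sorts: 10 of 23 were lower and 0 higher in CD45+ cells, and 14 of 23 were higher and 2 lower in myeloid cells, with median log2 changes of -0.96 and 1.10. Csf1r, for example, had a log2 change of -1.03 in CD45+ cells and 1.06 in myeloid cells, where it went from 190.0 and 217 to 435 and 414 FPKM.

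Lymphocyte genes also pointed in opposite directions. Cytotoxic markers had 5 of 17 higher in CD45+ cells and 12 of 15 lower in myeloid cells, with medians of 0.45 and -2.29. Xcl1 in the myeloid sort went from 54.1 and 34.9 to 2.28 and 4.22 FPKM, a small part of its level in CD45+ cells, and Cxcr6 went from 33 and 48.3 to 6.35 and 5.69 FPKM. Genes of mast cells and neutrophils fell in both: in the myeloid sort Mcpt4 went from 377 and 307 to 17.5 and 14.8 FPKM and S100a9 from 179 and 112 to 53.1 and 65.6 FPKM, and 12 of 16 mast cell markers and 7 of 13 neutrophil markers were lower there. Cd207 differed, since it was not called in CD45+ cells and fell in myeloid cells, from 158 and 140.3 to 36.9 and 40.5 FPKM. Mutant myeloid libraries held 219 and 226 FPKM of Cd207, above both WT ages of that sort, unlike the mutant CD45+ libraries.

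**Figure D5:**
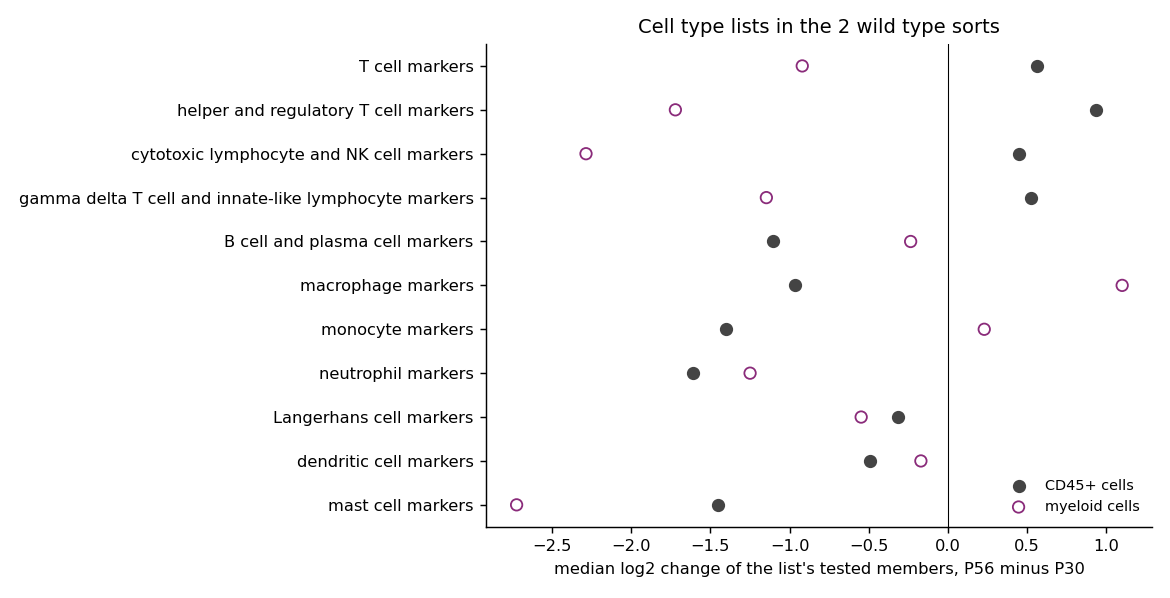
For 11 immune cell lists, the median log2 change from P30 to P56 over the tested members is shown for WT CD45+ cells (filled points) and WT myeloid cells (open points). The 4 T and innate-like lymphocyte lists lie right of 0 in CD45+ cells and left of 0 in myeloid cells, macrophage and monocyte markers do the reverse, and neutrophil and mast cell markers lie left of 0 in both.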

How the data were processed

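CD45+ cells were sorted from dorsal skin of WT mice at P30 and P56 and of mutant mice at P56. Per the study's methods, full-length cDNA was made by Smart-seq2, sequenced in pairs, aligned to mm10 with STAR (version 2.4.2 in the submitters' processing notes) and quantified with RSEM. The deposited values are FPKM, computed by the authors per library with no further scaling stated. Reads could not be recovered from the FPKM, so no count model was run and depth is unknown.

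Genes with 1 FPKM or more in at least 2 of 6 CD45+ libraries were fitted in limma 3.58.1 (R 4.3.3) on log2(FPKM + 1), with 1 mean per group and a variance trend. A fold change on this scale understates that of low genes. Every adjusted p in the report is Benjamini-Hochberg over all genes tested, two-sided. The myeloid table was fitted the same way on its own. The fit was tested on simulated data.

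The members and the gene lists were chosen with earlier results of these data known. Named genes were the 12 largest rises and falls with a mean of 5 FPKM or more in the higher group, the 2 to 4 called genes of each list with the largest change (or its 2 most abundant where no gene was called), and a fixed set (Ptprc, Cd3e, Adgre1, Cd207, Kit, S100a8, Spp1, Cd44, Mki67, Igf1, Osm, Wnt7b, Wnt10a, Tnf, Il1b). Predicted genes without a name were skipped. Some genes that the rule names are not reported here. Other genes named were chosen after their values were seen. Alternatives covered the pseudocount, filter, samples, scaling, variance model, replicate block, threshold and each library left out. Coordinates are from GENCODE on GRCm38.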

Additional observations from a re-analysis of the deposited data

Results flagged for a closer look

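Genes called in opposite directions at P56 in the CD45+ and the myeloid sort are given here for a closer look. The 2 tables were normalized separately and the difference between the sorts was not tested. Higher in CD45+ cells and lower in myeloid cells were Spry2 (log2 change 2.56 and -1.44), Cxcr6 (2.18 and -2.55), Tigit (2.002 and -1.84), Ccr8 (1.97 and -1.88), Icos (1.85 and -2.55), Xcl1 (1.82 and -3.43), Gzmb (1.65 and -2.29), Ifng (2.16 and -1.06), Il17a (1.23 and -1.49), Itgav (1.17 and -1.85) and Mmp12 (2.13 and -1.83). Il17f did the same (1.52 in CD45+ cells), going from 5.35 and 2.19 FPKM to a listed 0 in myeloid cells. Some of these genes were near the minimum in myeloid cells. Ifng went from 4.97 and 3.4 to 1.69 and 1.26 FPKM there, and Il17a from 3.47 and 3.87 to 0.88 and 0.46 FPKM. Lower in CD45+ cells and higher in myeloid cells were Serping1 (-2.10 and 1.17), Timp2 (-1.43 and 1.47), Oas2 (-1.34 and 1.27), Siglech (-1.21 and 1.30) and Clec10a (-1.06 and 1.42). Groups of 2 libraries allow no check for a single library that stands apart.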

How the results depend on the processing

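The 351 higher and 871 lower members became 601 and 1324 with a pseudocount of 0.1, 123 and 277 with a pseudocount of 5, and 3275 and 3742 by adjusted p alone. Leaving out 1 library at a time gave 350 to 369 higher and 848 to 909 lower, a lone library being assumed to vary like the other groups. Scaling, filter, variance model and the fit on 4 WT libraries left both counts within 1.5 times. The replicate numbers do not pair the samples (correlation of deviations -0.04), and with the replicate block 352 were higher and 871 lower. Of 134 called named genes, 124 kept their call in every fit without 1 library, and Hbb-bs, Rfc5, Hlf, Tbx21, Naaa, Hspa1a, Pmvk, Ccr2, Acta2 and Hba-a2 lost it in some. Without 1 library, the log2 change of Fabp4 ranged from -0.15 to 0.00078, turning positive without WT P30 replicate 1, and that of Mki67 from -0.0011 to 0.20, turning negative without WT P30 replicate 2. Neither was called. With a pseudocount of 5, 40 of the called named genes fell short of the 2-fold limit or the adjusted p. It also left 2 cytotoxic, 2 B cell, 6 monocyte, 1 dendritic cell, 6 mast cell, 1 basophil and eosinophil, 1 erythroid, 6 complement, 2 hair growth factor and 1 matrix protease genes called in the list's direction, and 2 cytokines lower. Quantile normalization ended the call of Acta2 (-0.96) as well as Cd74, and median-of-ratios scaling that of Pmvk (-0.99). The cause was not tested. Read depth is unknown.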

Other observations

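Genes outside the members were counted too, beside the 3.73% higher and 6.89% lower of all genes tested. Of 1088 noncoding genes tested, 139 were higher and 28 lower at P56, so that rises outnumbered falls, the reverse of all genes tested. Of 372 X-linked protein-coding genes, 14 were higher and 24 lower, near the shares of all genes tested. Lyz2, lysozyme of macrophages and neutrophils, had values in the myeloid table far from those of the CD45+ table. It went from 10.8 and 12.4 to 9086 and 8881 FPKM in WT myeloid cells, with 19.5 and 18.1 FPKM in mutant myeloid cells, against 6969 and 7412 FPKM at P30 and 2335 and 2241 FPKM at P56 in WT CD45+ cells and 13844 and 14457 FPKM in mutant CD45+ cells. The reason for the low myeloid values was not tested.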
